A study of Mus musculus with 11 samples.

Results

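Transcripts of 10 chains of the receptors for IL-4, IL-13, IL-10, IL-17, interferon-gamma and GM-CSF were followed in the pancreas and the epididymal adipose tissue of mice with obesity-related alcohol-induced acute pancreatitis (OA-AP). The genes were taken by their symbols (Il4ra, Il13ra1, Il10ra, Il10rb, Il17ra, Ifngr1, Ifngr2, Il2rg, Csf2ra and Csf2rb), and all 10 were listed among the 54532 genes counted in the pancreas and the 46078 counted in adipose tissue. RNA sequencing covered 11 libraries: 2 control and 3 OA-AP libraries of the pancreas, and 3 control and 3 OA-AP libraries of adipose tissue. All mice were wild type C57BL/6 (male C57BL/6J in the study's methods), entered the diets at an age of 4 to 5 weeks and were 16 weeks old by the labels. Control mice ate a control diet with 10 kcal% fat for 12 weeks and were injected with saline, whereas OA-AP mice, labelled Model, ate a diet with 60 kcal% fat for 12 weeks and received 2 intraperitoneal injections of ethanol at 2 g/kg, 1 h apart. Tissue was collected 12 h after the first injection. Diet, ethanol and pancreatitis differ together between the groups and cannot be told apart, and no library from a mouse given the herbal formula CQCQD was analysed here.

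These proteins are the chains through which cells read cytokines, and most work in pairs. Il4ra encodes the chain that binds IL-4. It joins the common gamma chain, encoded by Il2rg, in the type I receptor of white blood cells, or the IL-13 binding chain, encoded by Il13ra1, in the type II receptor that many other cells carry, and both forms signal through Janus kinases and Stat6. Il10ra encodes the ligand-binding chain of the IL-10 receptor, found mainly on leukocytes, and Il10rb the widely expressed chain that it shares with the receptors for IL-22 and interferon-lambda; IL-10 acts through Stat3 and restrains inflammatory gene expression. Il17ra encodes the subunit common to most IL-17 receptors, which pairs with Il17rc and signals through the adaptor Act1 rather than Janus kinases. Ifngr1 and Ifngr2 encode the ligand-binding and the signalling chain of the interferon-gamma receptor, which also signals through Janus kinases. Csf2ra and Csf2rb encode the specific and the shared beta chain of the GM-CSF receptor, a growth and activation signal for myeloid cells. In pancreatitis such receptors sit on infiltrating and resident leukocytes, and several also sit on epithelial cells and fat cells. Bulk tissue was sequenced, so fewer cells of a type and less RNA per cell cannot be told apart.

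Counts on genes came to between 14188832 and 17238919 per library in the pancreas and between 20825177 and 27928097 in adipose tissue. A CPM is a count relative to the library total after scaling with the TMM factors of edgeR, and RPKM is the CPM per kilobase of the deposited gene length. A gene was called higher or lower when its adjusted p-value in edgeR's quasi-likelihood test (Benjamini-Hochberg over all tested genes) was under 0.05 and its fold change was at least 1.5. A list of 10 acinar markers took 43.3% and 44.7% of the counts in control pancreas and 32.1% to 34.6% in OA-AP pancreas. Of these markers 8 were called lower there, where 13.5% of all tested genes were. The same list took 0.479% of the counts in adipose control replicate 2 and 0.00087% to 0.00157% in the other 5 adipose libraries. Neutrophil markers summed to 107 CPM in replicate 3 of the OA-AP pancreas and to 14.5 and 4.63 CPM in the other two. The fat markers Adipoq, Fabp4 and Plin1 and the other 5 of their list summed to 27910 to 28090 CPM in control and 28920 to 31070 CPM in OA-AP adipose tissue.

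In the pancreas 4 of the 9 tested receptor genes were called, all of them higher in OA-AP mice (Il4ra, Il13ra1, Il17ra and Csf2ra), where 29.8% of the 12884 tested genes were called and 16.2% were called higher. Il2rg had too few counts there to be tested. In adipose tissue 5 of the 10 were called higher (Il4ra, Il13ra1, Il17ra, Ifngr2 and Csf2rb) and Il10ra was called lower, where 25.1% of the 15839 tested genes were called, 12.1% higher and 13.0% lower. The median log2 fold change of the receptor genes was 1.18 in the pancreas and 0.60 in adipose tissue, beside 0.0391 and -0.0149 over all tested genes. Il4ra, Il13ra1 and Il17ra were called higher in both tissues. Ranges of control and OA-AP libraries did not overlap for 7 of the 9 genes tested in the pancreas (6 higher, 1 lower; of all tested genes 62.3% did not overlap, with 32.9% higher and 29.4% lower in OA-AP mice) and for 7 of the 10 in adipose tissue (6 higher, 1 lower; of all tested genes 52.4%, with 26.4% higher and 26.0% lower).

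**Figure D1:**
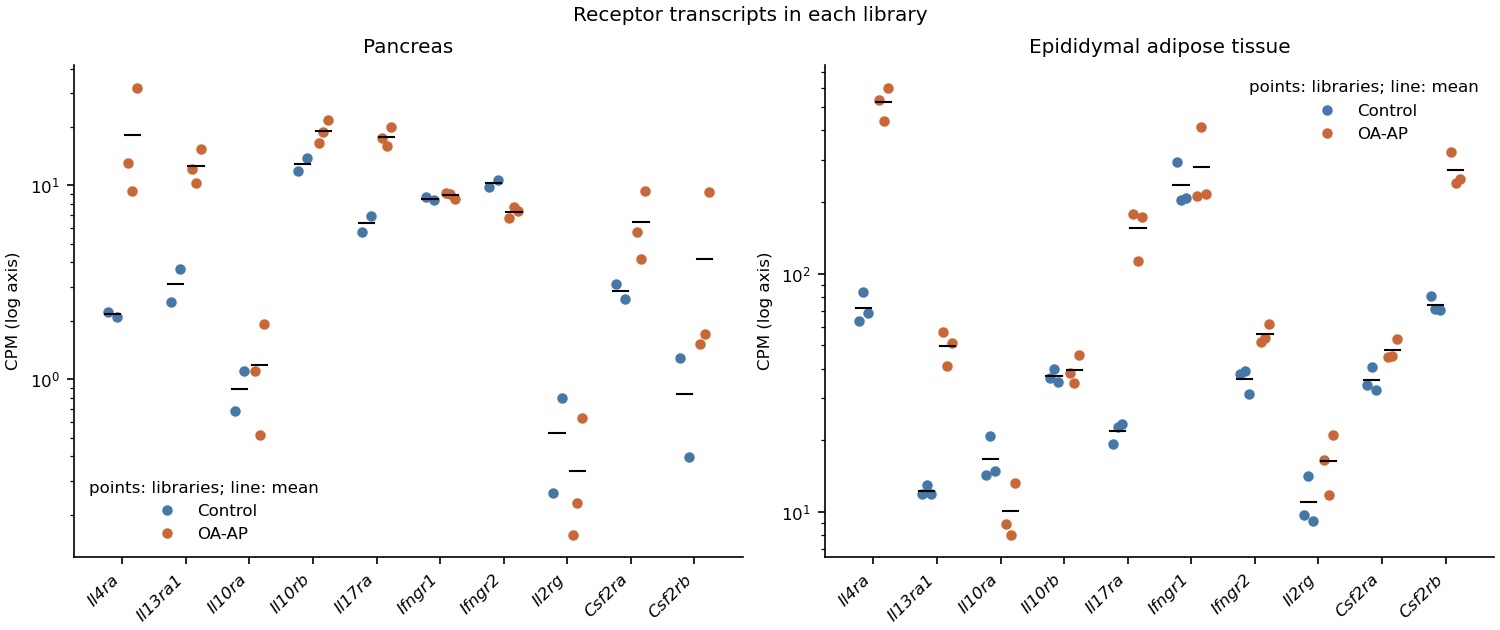
CPM on a log axis for each of the 10 receptor genes (x axis) in each library of the pancreas (left) and epididymal adipose tissue (right). Points are libraries, blue for control and orange for OA-AP, and black lines are group means. Il4ra, Il13ra1 and Il17ra lie higher in every OA-AP library of both tissues than in any control library, Ifngr2 lies lower in the pancreas and higher in adipose tissue, and Ifngr1 overlaps in both.

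Il4ra (ENSMUSG00000030748, 7:125552120-125579474, plus strand, GRCm38) had the largest log2 fold change of the tested receptor genes in both tissues, though in adipose tissue it exceeded that of Il17ra by less than its standard error. In the pancreas it was at 2.23 and 2.09 CPM in the control libraries, from 26 and 21 counts, and at 13.1, 9.38 and 31.9 CPM in the OA-AP libraries. All 3 OA-AP libraries lay above both controls, and replicate 3 lay well above the other two. The group means were 2.16 ± 0.097 (SD, n = 2) and 18.1 ± 12.1 CPM (SD, n = 3), an 8.35-fold increase with a log2 fold change of 3.06 (SE 0.677, adjusted p = 0.0206). Without replicate 3 the log2 fold change was 2.32 and was still called. The call was lost without control replicate 1 (3.12, adjusted p = 0.111) and without control replicate 2 (3.02, adjusted p = 0.113), which leave a lone control library that is assumed to vary like the others, and it was lost with no filter on low counts (adjusted p = 0.133).

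In adipose tissue Il4ra was at 63.4, 84.1 and 68.3 CPM in control and at 535, 438 and 604 CPM in OA-AP libraries, with no overlap. The log2 fold change between means of 71.9 ± 10.8 and 526 ± 83.4 CPM (SD over 3 libraries in each group) was 2.87 (SE 0.174, adjusted p = 0.000219). The log2 change in adipose tissue minus that in the pancreas was -0.21 (SE 0.643, adjusted p = 0.878), so no difference between the tissues was detectable, with a standard error that allows a difference of either sign.

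Il13ra1 (ENSMUSG00000017057, X:36112110-36171259, plus strand), the partner of Il4ra in the type II receptor, was also higher in both tissues. Pancreas libraries held 2.49 and 3.69 CPM in control and 12.2, 10.2 and 15.4 CPM in OA-AP mice, without overlap. Its mean went from 3.09 ± 0.849 to 12.6 ± 2.59 CPM, a 4.10-fold increase with a log2 fold change of 2.04 (SE 0.274, adjusted p = 0.00134). In adipose tissue the control libraries lay close together at 11.9, 13.0 and 11.9 CPM, and the OA-AP libraries at 57.0, 41.2 and 51.1 CPM. This was a 4.06-fold increase from 12.3 ± 0.650 to 49.8 ± 7.99 CPM, a log2 fold change of 2.02 (SE 0.136, adjusted p = 0.000269). The changes in the tissues differed by -0.03 on the log2 scale (SE 0.293, adjusted p = 0.985).

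Sequence upstream of these genes is shown because Il4ra and Il13ra1 were called in both tissues and Ifngr2 changed differently between them. It is RefSeq sequence of GRCm38.p6, held for 6 of the 10 genes (Il4ra, Il13ra1, Ifngr1, Ifngr2, Il2rg and Csf2ra), and only bases before the start that lie in no annotated exon are given. In capitals are matches, on either strand, to the letters TTCNNNGAA (STAT, 3-base spacer), TTCNNNNGAA (the spacing that Stat6 is known for), GGGANNNNCC (NF-kB-like) or TGANTCA (AP-1). The Il4ra stretch (chr7:125552021-125552119, plus strand, 99 bases) held none of the 4 motifs.
Il4ra: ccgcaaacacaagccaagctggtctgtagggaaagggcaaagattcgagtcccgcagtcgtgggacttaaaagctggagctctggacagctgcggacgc
The Il13ra1 stretch (chrX:36111858-36112107, plus strand, 250 bases) held 1 match to GGGANNNNCC, 37 bases before the start.
Il13ra1: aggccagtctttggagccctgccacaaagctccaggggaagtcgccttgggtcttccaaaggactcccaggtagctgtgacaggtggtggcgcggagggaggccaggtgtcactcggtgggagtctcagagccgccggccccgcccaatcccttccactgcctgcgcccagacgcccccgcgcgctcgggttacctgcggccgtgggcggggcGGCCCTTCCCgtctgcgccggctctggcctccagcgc
The Ifngr2 stretch (chr16:91546809-91547058, plus strand, 250 bases) held 1 match to TTCNNNNGAA at 91 bases before the start, and 2 overlapping matches to GGGANNNNCC at 76 and 75 bases.
Ifngr2: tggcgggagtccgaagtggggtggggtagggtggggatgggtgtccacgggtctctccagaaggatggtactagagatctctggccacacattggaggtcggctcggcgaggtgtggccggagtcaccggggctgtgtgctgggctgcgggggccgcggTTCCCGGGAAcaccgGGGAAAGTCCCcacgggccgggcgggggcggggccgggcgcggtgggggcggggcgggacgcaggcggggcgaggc
Among 32851 upstream windows of 250 bases, 5.85% held TTCNNNNGAA, 17.6% GGGANNNNCC, 7.02% TTCNNNGAA and 6.75% TGANTCA. The stretches of Ifngr1, Il2rg and Csf2ra held no match. A match describes the letters and not a bound site.

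Il17ra (ENSMUSG00000002897, 6:120463247-120487559, plus strand) increased in both tissues, by more in adipose tissue. The pancreas libraries were at 5.75 and 6.98 CPM in control and at 17.6, 15.9 and 19.9 CPM in OA-AP mice. Every OA-AP library lay above both controls, and the 3 OA-AP values were close together. Means of 6.36 ± 0.870 and 17.8 ± 2.02 CPM gave a 2.81-fold increase (log2 fold change 1.49, SE 0.186, adjusted p = 0.000989). In adipose tissue the values were 19.3, 22.8 and 23.5 CPM in control and 179, 113 and 173 CPM in OA-AP mice, with replicate 2 the lowest of the OA-AP libraries. Means of 21.9 ± 2.24 and 155 ± 36.5 CPM gave a 7.09-fold increase (log2 fold change 2.83, SE 0.197, adjusted p = 0.000347).

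The adipose change of Il17ra exceeded the pancreas change by 1.32 on the log2 scale (SE 0.269, adjusted p = 0.00499). Of the 10 receptor genes, 2 had a tissue difference past an adjusted p of 0.05 (Il17ra and Ifngr2), both with the adipose change above the pancreas change. Of the 17046 genes tested for it 21.3% passed, a share near 2 of 10, and 10.8% passed in this direction. Scaling by library totals alone moved the median tissue difference of all genes from -0.0555 to -0.876, and there neither gene passed (0.47, adjusted p = 0.167 for Il17ra, and 0.26, adjusted p = 0.338 for Ifngr2). Relative to that median the tissue difference of Il17ra was 1.38 with TMM factors and 1.35 with library totals alone.

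**Figure D2:**
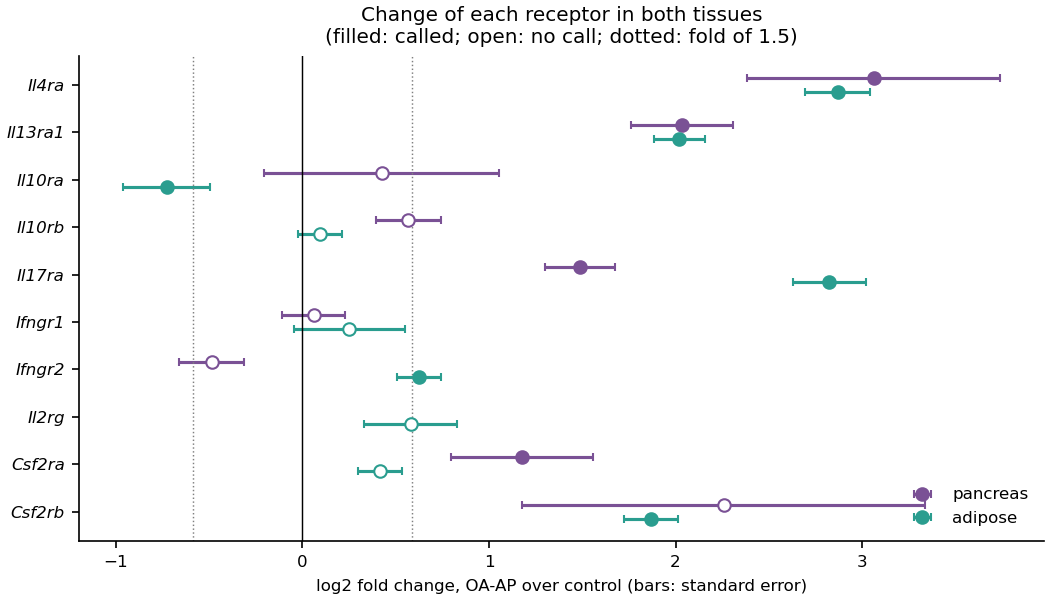
Log2 fold change of OA-AP over control (x axis) for the 10 receptor genes (y axis) in the pancreas (purple) and adipose tissue (green); bars are standard errors. Filled points were called, open points were not, dotted lines mark a fold of 1.5, and Il2rg was not tested in the pancreas. Il4ra and Il13ra1 lie at like values in both tissues, Il17ra lies at 1.49 and 2.83, and Ifngr2 lies on opposite sides of 0.

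Il10ra (ENSMUSG00000032089, 9:45253837-45269149, minus strand), the ligand-binding chain of the IL-10 receptor, was the only receptor gene of the 10 called lower, and only in adipose tissue. Its adipose values were 14.4, 20.9 and 14.8 CPM in control and 8.92, 8.03 and 13.3 CPM in OA-AP mice. The groups did not overlap, although OA-AP replicate 3 came close to control replicate 1. Means of 16.7 ± 3.64 and 10.1 ± 2.81 CPM gave a 1.66-fold decrease (log2 fold change -0.73, SE 0.234, adjusted p = 0.0458). The call was lost without any of control replicates 1 (adjusted p = 0.067), 2 (0.129) and 3 (0.0808) and OA-AP replicates 1 (0.122) and 2 (0.102). Without control replicate 2, the library with acinar transcripts and the highest level, the log2 fold change was -0.53. Lymphocyte markers were lower in the same libraries, where 13.0% of all tested genes were called lower. All 6 B cell markers were called lower, summed at 8.45 to 49.0 CPM in control and 2.07 to 3.49 CPM in OA-AP mice. So were 7 of 10 tested T and NK cell markers, summed at 12.0 to 30.8 and 4.62 to 6.21 CPM. Control replicate 2 was the highest of both lists (49.0 and 30.8 CPM). With single libraries left out, the B cell calls fell to 4 without control replicate 3, 3 without OA-AP replicate 1 or 3 and 2 without OA-AP replicate 2, and the T and NK cell calls to 4 without control replicate 1, control replicate 2 or OA-AP replicate 2. Their part in the Il10ra difference was not tested.

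In the pancreas Il10ra was sparse, with 8 and 11 counts in control and 21, 9 and 37 counts in OA-AP libraries, or 0.686 and 1.10 against 1.10, 0.515 and 1.94 CPM. The groups overlapped, and the log2 fold change of 0.42 (SE 0.631, adjusted p = 0.633) was not called and turned to -0.16 without OA-AP replicate 3. No difference was detectable at this depth. The tissue difference was -1.18 (SE 0.639, adjusted p = 0.226).

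Il10rb (ENSMUSG00000022969, 16:91406164-91425834, plus strand), the chain shared with the IL-22 and interferon-lambda receptors, was called in neither tissue with TMM factors and the filter on low counts. It was at 11.8 and 13.9 CPM in control and 16.4, 18.9 and 21.7 CPM in OA-AP pancreas, without overlap. The log2 fold change of 0.57 (SE 0.174, adjusted p = 0.0384) stayed just under the fold minimum, at 1.48-fold, and so was no call. It was called with no filter on low counts (0.64, adjusted p = 0.00437) and with library totals alone (1.27, adjusted p = 0.000231). Adipose libraries were at 36.6, 39.7 and 35.2 CPM in control and 38.3, 34.9 and 45.8 CPM in OA-AP mice, fully interleaved, with a log2 fold change of 0.09 (SE 0.118, adjusted p = 0.568). The sign of that value turned when OA-AP replicate 3 was left out (-0.02) and under scaling by library totals (-0.06).

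Ifngr1 (ENSMUSG00000020009, 10:19591949-19610229, plus strand), the ligand-binding chain of the interferon-gamma receptor, was not called in either tissue with TMM factors (with library totals alone its pancreas log2 fold change was 0.77, adjusted p = 0.0159, where all genes had a median of 0.749). In the pancreas it was at 8.67 and 8.38 CPM in control and 9.08, 9.04 and 8.52 CPM in OA-AP mice. Its log2 fold change there was 0.06 (SE 0.170, adjusted p = 0.815), and the groups overlapped. In adipose tissue it was at 295, 203 and 207 CPM in control and 211, 413 and 216 CPM in OA-AP mice. A single high library in each group (control replicate 1 and OA-AP replicate 2) made the spread wide, and the log2 fold change of 0.25 (SE 0.297, adjusted p = 0.537) turned to -0.14 without OA-AP replicate 2.

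Ifngr2 (ENSMUSG00000022965, 16:91547072-91565623, plus strand), the signalling chain, had opposite signs in the tissues. Pancreas libraries were at 9.78 and 10.7 CPM in control and 6.77, 7.72 and 7.37 CPM in OA-AP mice, lower in each OA-AP library. The log2 fold change of -0.49 (SE 0.176, adjusted p = 0.0645) was no call, and it was 0.22 with library totals alone, where the median of all genes was 0.749. In adipose tissue Ifngr2 was at 38.0, 38.9 and 31.3 CPM in control and 51.5, 53.9 and 61.5 CPM in OA-AP mice, without overlap. Means of 36.1 ± 4.16 and 55.6 ± 5.22 CPM gave a 1.54-fold increase (log2 fold change 0.63, SE 0.117, adjusted p = 0.00685), which lies just past the fold minimum. It went under that minimum with library totals alone (0.47), without control replicate 3 (0.55) and without OA-AP replicate 3 (0.55). The adipose change minus the pancreas change was 1.10 (SE 0.191, adjusted p = 0.00197).

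Il2rg (ENSMUSG00000031304, X:101264378-101268255, minus strand), the common gamma chain of lymphocyte cytokine receptors, was barely detected in the pancreas, with 3 and 8 counts in control and 3, 4 and 12 counts in OA-AP libraries. In adipose tissue it was at 9.74, 14.1 and 9.19 CPM in control and 16.6, 11.8 and 21.0 CPM in OA-AP mice. OA-AP replicate 2 lay within the control range, and the log2 fold change of 0.58 (SE 0.250, adjusted p = 0.109) was not called. Without that library it was 0.78 (adjusted p = 0.0306), the only 1 of 12 alternatives with a call. Without OA-AP replicate 3 it was 0.37 (adjusted p = 0.302).

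Csf2ra (ENSMUSG00000059326, 19:61224402-61228418, minus strand), the GM-CSF binding chain, was called higher in the pancreas. Its libraries were at 3.09 and 2.59 CPM in control and 5.78, 4.18 and 9.36 CPM in OA-AP mice, all OA-AP values above the controls. Means of 2.84 ± 0.351 and 6.44 ± 2.66 CPM gave a 2.26-fold increase (log2 fold change 1.18, SE 0.379, adjusted p = 0.0454). The call was lost with DESeq2's size factors (adjusted p = 0.0544) and without control replicate 1 (0.166), control replicate 2 (0.232) or OA-AP replicate 1 (0.0931). In adipose tissue Csf2ra was at 34.2, 40.7 and 32.4 CPM in control and 44.9, 45.1 and 53.2 CPM in OA-AP mice, without overlap. There the log2 fold change of 0.42 (SE 0.119, adjusted p = 0.0308) corresponded to 1.34-fold, under the fold minimum.

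Csf2rb (ENSMUSG00000071713, 15:78325752-78353847, plus strand), the beta chain shared by the GM-CSF, IL-3 and IL-5 receptors, was called higher in adipose tissue. Control libraries were at 80.6, 71.4 and 70.7 CPM and OA-AP libraries at 325, 239 and 250 CPM. Every OA-AP library was far above the controls, and means of 74.2 ± 5.51 and 271 ± 46.7 CPM gave a 3.65-fold increase (log2 fold change 1.87, SE 0.145, adjusted p = 0.000402). In the pancreas the counts were 15 and 4 in control and 29, 30 and 176 in OA-AP libraries, or 1.29 and 0.399 against 1.52, 1.72 and 9.20 CPM. The ranges did not overlap, but replicate 3 carried most of the difference. The log2 fold change of 2.26 (SE 1.08, adjusted p = 0.159) was not called, was 0.85 without replicate 3, and passed in DESeq2 alone (adjusted p = 0.0241).

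Csf2rb has a near-identical neighbour, Csf2rb2, which encodes the beta chain of the mouse IL-3 receptor, and reads of the pair may have been split between them. Csf2rb2 was called higher in adipose tissue too, at 29.5 ± 4.52 CPM in control and 103 ± 19.8 CPM in OA-AP mice (log2 fold change 1.80, SE 0.174, adjusted p = 0.000767). Its ratio to Csf2rb stayed between 0.348 and 0.422 in all 6 adipose libraries. Summed, the pair was at 115, 101 and 95.7 CPM in control and 448, 323 and 353 CPM in OA-AP adipose tissue. The groups were thus apart for the pair as a whole, however its reads were shared out. The sum cannot tell which gene of the pair carried the difference.

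Per kilobase of gene length, Ifngr1 was the most abundant of the 10 in control adipose tissue at 82.6 ± 18.2 RPKM (SD, n = 3). Csf2ra followed at 19.3 ± 2.36 RPKM and Il4ra at 12.0 ± 1.80 RPKM, with Csf2rb (10.2), Il10rb (9.77) and Ifngr2 (9.58) overlapping it in a chain of neighbours. Below these came Il10ra (4.77 RPKM) and Il2rg (4.61), which overlapped, then Il13ra1 (3.30) and Il17ra (2.52). In OA-AP adipose tissue Il4ra reached 87.6 ± 13.9 RPKM and overlapped Ifngr1 at 98.3 ± 40.5 RPKM. Csf2rb (37.3 RPKM) stood above Csf2ra (25.8), the reverse of the control order by the deposited lengths, and Il17ra at 17.9 ± 4.21 RPKM, last in the control order, overlapped Ifngr2 (14.8). Il10ra was lowest of the 10 at 2.88 RPKM.

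In control pancreas the order of length-scaled levels was Il10rb (3.37 ± 0.375 RPKM, SD, n = 2), Ifngr1 (2.99), Ifngr2 (2.71) and Csf2ra (1.54), each above the next. Il13ra1 (0.832 RPKM) and Il17ra (0.735) overlapped, Il4ra was at 0.360 RPKM, and Il10ra, Il2rg and Csf2rb, between 0.255 and 0.116 RPKM, overlapped their neighbours. In OA-AP pancreas the top 7 (Il10rb, Csf2ra, Il13ra1, Ifngr1, Il4ra, Il17ra and Ifngr2, from 5.00 to 1.94 RPKM) each overlapped the next, and only Csf2rb, Il10ra and Il2rg (0.570, 0.339 and 0.142 RPKM) lay clearly below. The tissues were counted in separate tables and normalised apart, so their levels are set side by side with no test.

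Ratios between the chains of a receptor, taken within each library from length-scaled counts, do not depend on the scaling of libraries. With 3 against 3 libraries the exact two-sided permutation test cannot go below p = 0.1, and with 2 against 3 it cannot go below p = 0.2, so no ratio could pass. Of the 6 ratios, groups did not overlap for 5 in adipose tissue and 3 in the pancreas. No share over other gene pairs was taken, and of single tested genes 52.4% and 62.3% did not overlap. The ratios use the receptor levels given above, and both ratios with Il4ra share its values. The log2 ratio of Il4ra to Il2rg was 1.37, 1.25 and 1.56 in control and 3.68, 3.88 and 3.52 in OA-AP adipose tissue (difference 2.30, exact p = 0.1, adjusted p = 0.24 over the 12 ratios). In the pancreas it was 1.79 and 0.06 in control and 5.05, 4.03 and 4.34 in OA-AP mice (difference 3.55, exact p = 0.2, adjusted p = 0.3), with few Il2rg counts behind it. Il4ra thus gained on the gamma chain in every OA-AP library of both tissues.

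The Il4ra to Il13ra1 ratio was higher in OA-AP adipose tissue and, by a narrow margin, in OA-AP pancreas. The log2 ratio was 1.72, 2.00 and 1.83 in control and 2.54, 2.71 and 2.87 in OA-AP adipose tissue (difference 0.86, exact p = 0.1), and -0.85 and -1.51 against -0.59, -0.82 and 0.36 in the pancreas (difference 0.83, exact p = 0.2). With each library left out the pancreas difference ranged from 0.48 to 1.16. Transcripts of Il13ra1 were the more abundant of this pair, per length, in both control libraries and OA-AP replicates 1 and 2 of the pancreas. They were the less abundant in OA-AP pancreas replicate 3 and in every adipose library. The Il10ra to Il10rb log2 ratio was lower in OA-AP adipose tissue, at -1.23, -0.81 and -1.12 in control and -1.98, -2.0 and -1.66 in OA-AP libraries (difference -0.83, exact p = 0.1), and overlapped in the pancreas.

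The beta chain of the GM-CSF receptor gained on its alpha chain in adipose tissue. The log2 ratio of Csf2ra to Csf2rb was 0.74, 1.17 and 0.85 in control, above 0, and -0.88, -0.43 and -0.25 in OA-AP libraries, below 0 (difference -1.44, exact p = 0.1). The deposited start and end of Csf2ra differ from those of a GENCODE annotation of GRCm38, and where the ratio lies relative to 0 rests on its deposited length of 1849 bases, whereas the difference between groups does not. The Il17ra to Il17rc log2 ratio was -2.48, -1.92 and -1.85 in control and 0.34, -0.70 and 0.15 in OA-AP adipose tissue (difference 2.01, exact p = 0.1), and overlapped in the pancreas. For Ifngr1 to Ifngr2 the groups did not overlap in the pancreas (0.23 and 0.05 against 0.83, 0.63 and 0.61, difference 0.55, exact p = 0.2) and overlapped in adipose tissue.

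**Figure D3:**
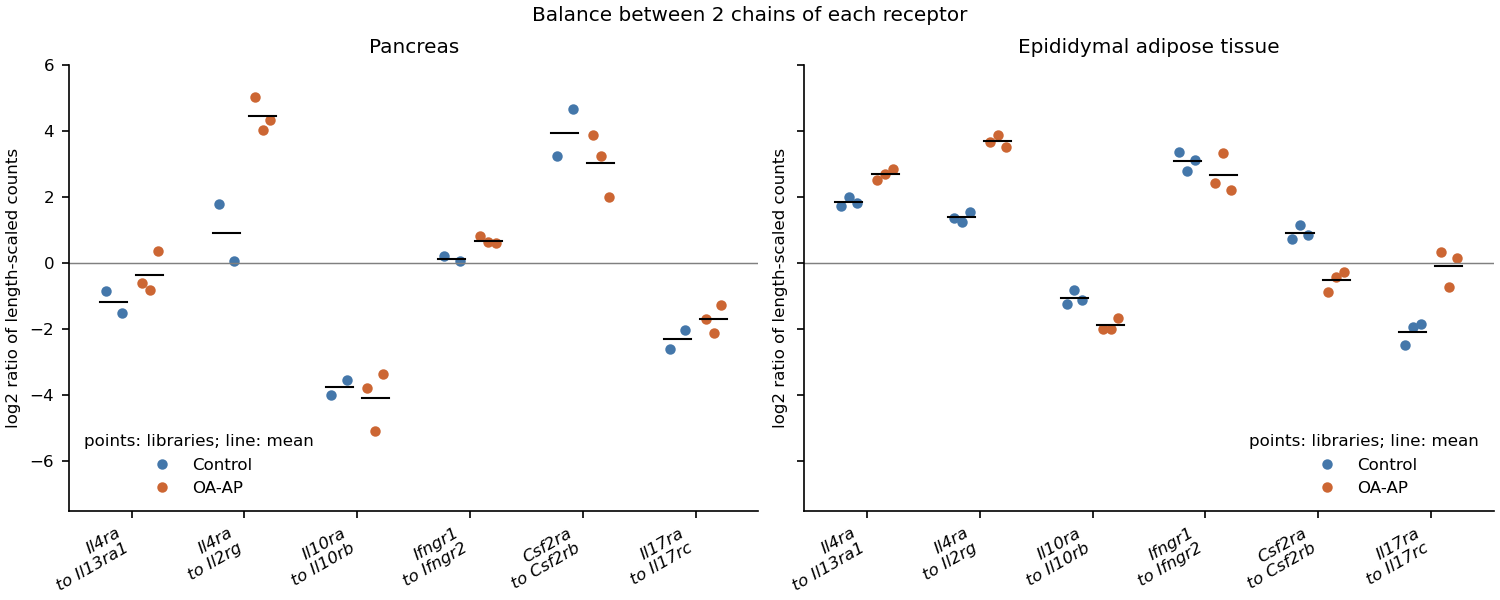
Log2 ratio of the length-scaled counts of 2 chains of a receptor (y axis; 0 is equal abundance) in each library of the pancreas (left) and adipose tissue (right). Points are libraries, blue for control and orange for OA-AP, and black lines are group means. In adipose tissue both Il4ra ratios and the Il17ra to Il17rc ratio lie higher in all OA-AP libraries, and the Il10ra to Il10rb and Csf2ra to Csf2rb ratios lie lower.

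Partner chains and related receptors were read from a list of 22 further genes. Of all genes tested in the pancreas 16.2% were called higher and 13.5% lower. In the pancreas 4 of 12 tested were called higher and none lower: Il22ra1, the IL-22 chain that pairs with Il10rb, went from 14.9 ± 0.0081 to 83.0 ± 3.44 CPM (log2 fold change 2.48, SE 0.136, adjusted p = 4.3e-05), Ifnlr1, which pairs with Il10rb for interferon-lambda, changed by 1.81, Ifnar1, a chain of the type I interferon receptor, by 0.92, and Il17rc, the partner of Il17ra, by 0.87. With control replicate 1 left out 2 calls remained in number, and likewise with control replicate 2 left out. In adipose tissue 2 of 19 were called higher (Csf2rb2 and Il17rc, the latter by 0.79) and 2 lower, near the 12.1% and 13.0% of all tested genes called in these directions. The lower pair were Il2rb, the IL-2 receptor beta chain of lymphocytes, which fell by 2.28 on the log2 scale from 5.73 ± 2.34 to 1.18 ± 0.410 CPM, and Il17rd, at -0.60. Over the list, log2 fold changes had a median of 0.47 in the pancreas and -0.0068 in adipose tissue.

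Transcripts of the ligands were scarce. Of 22 cytokine genes, 12 had no count in any pancreas library and 6 had none in any adipose library, and only 1 and 5 could be tested. Il4 was at 6 and 1 counts in control and 2, 6 and 3 counts in OA-AP pancreas, and at 29, 25 and 32 against 14, 20 and 21 counts in adipose tissue, with no call. Il17a had 1 count in all adipose libraries together and 1 in all pancreas libraries, and Ifng had none in the pancreas and 4, 4 and 2 against 1, 0 and 0 counts in adipose tissue. A count of 0 allows up to 3 counts in a library, so such cytokines were not detectable at this depth and are not shown to be absent. Il10 was the ligand called higher in adipose tissue, from 1, 5 and 5 counts in control to 14, 18 and 11 in OA-AP libraries (0.140 ± 0.0914 to 0.716 ± 0.155 CPM, log2 fold change 2.33, SE 0.502, adjusted p = 0.0112). It passed the filter on low counts only through its OA-AP libraries, so it could enter only as an increase. With at least 10 counts required in every sample, 0 of 4 tested ligands were called higher. Its binding chain Il10ra was called lower in the same adipose libraries, and a relation between the changes was not tested. Tslp, an epithelial cytokine that signals through Il7r, was called lower there (-0.95, SE 0.310, adjusted p = 0.0469), a call lost without OA-AP replicate 1 or any control library.

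Kinases and transducers downstream of these receptors were called in both directions. In the pancreas 6 of 18 were called higher and 1 lower, where 16.2% of all tested genes were called higher and 13.5% lower. In adipose tissue 5 of 20 were called higher and 2 lower, where the shares of all tested genes were 12.1% and 13.0%, so the lower count is near that background. The list had median log2 fold changes of 0.27 and 0.17. Stat3, the transducer of IL-10 and of many other cytokines, went from 21.0 ± 1.42 to 178 ± 50.4 CPM in the pancreas (log2 fold change 3.08, SE 0.257, adjusted p = 0.000252) and from 210 ± 14.6 to 540 ± 85.5 CPM in adipose tissue (1.36, SE 0.146, adjusted p = 0.00107). Stat6, the transducer of IL-4, increased by 0.84 (SE 0.130) in the pancreas and 0.81 (SE 0.113) in adipose tissue. Irs2, a docking protein of the IL-4 and insulin receptors, increased by 2.48 in the pancreas, Jak3, the kinase of the gamma chain, by 1.52, and Jak2, the kinase of Ifngr2 and Csf2rb, by 0.70 in adipose tissue. Jak2 was called higher in the pancreas too. Irs1 was called lower in adipose tissue (-1.23, SE 0.114) but higher in the pancreas. With library totals alone, 15 of the 18 were called higher in the pancreas, where 5843 of all tested genes were.

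Feedback inhibitors of cytokine signalling were called higher in 5 of 16 cases in the pancreas and 8 of 17 in adipose tissue, with none lower. Of all tested genes 16.2% and 12.1% were called higher. The list had median log2 fold changes of 0.58 and 0.65. A lower call appeared in adipose tissue with library totals alone. In the pancreas a lower call appeared with no filter on low counts, with the replicate block or without OA-AP replicate 3. In the pancreas Ptpn2, a phosphatase that acts on Janus kinases and Stats, increased by 2.29 (SE 0.377), Socs2 by 1.61 (SE 0.263), the phosphatase Ptpn11 by 0.97 (SE 0.161) and Socs7 by 0.70 (SE 0.172). In adipose tissue Socs3, an inhibitor of Stat3 signalling, went from 12.8 ± 1.60 to 188 ± 31.1 CPM (log2 fold change 3.88, SE 0.165, adjusted p = 0.000179). There Zc3h12a, an RNase that limits IL-17 signalling, increased by 1.65, Ptpn1 by 1.34 and Ptpn2 by 1.19. Socs2, Socs3 and Ptpn2 were called higher in both tissues. The pancreas count fell without either control library, which leaves 1 control. It was 13 with library totals alone, where 5843 of all tested genes were called higher.

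Known targets of the receptors were counted by list, each list being read also by other signals. Of all tested genes 16.2% were called higher in the pancreas and 12.1% in adipose tissue. Of the IL-17 targets 5 of 10 were called higher in the pancreas and 11 of 11 in adipose tissue, with medians of 5.83 and 4.98. In the pancreas 6 of the 10, and in adipose tissue 2 of the 11, had at most 3 counts in every control library. These passed the filter on low counts only through the OA-AP libraries, so they could enter only as increases. With them set against a control floor of 3 counts the medians were 3.81 and 4.68. With at least 10 counts required in every sample, 3 of 3 were called higher in the pancreas and 8 of 8 in adipose tissue (medians 2.05 and 4.53). Without OA-AP replicate 3 the pancreas median was 3.29. The antimicrobial protein Lcn2 was at 0.601 and 1.10 CPM in control and 178, 101 and 306 CPM in OA-AP pancreas (log2 fold change 7.86, SE 0.739), and at 9.48, 7.50 and 11.6 against 552, 1911 and 410 CPM in adipose tissue (6.65, SE 0.728). The transcription factor Cebpb increased by 2.19 and 1.51. The neutrophil chemokine Cxcl5 had 0, 1 and 3 counts in control and 1652, 974 and 1893 counts in OA-AP adipose tissue. Its OA-AP mean was 674-fold a floor of 3 counts per library. For Csf3, the neutrophil growth factor, the OA-AP mean was 22.5-fold that floor. In the pancreas 2 calls were left without control replicate 1 or without control replicate 2, and DESeq2 made 10.

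IL-10 targets, of which several also answer to other Stat3 signals, were called higher in 5 of 8 cases in the pancreas and 8 of 10 in adipose tissue. Their medians were 3.19 and 2.45, and of all tested genes 16.2% and 12.1% were called higher. Bcl3, a co-regulator of NF-kB, increased by 3.82 in the pancreas and 3.04 in adipose tissue, Sbno2, a corepressor, by 4.07 and 2.53, and Nfil3 by 3.92 and 3.06. Zfp36, which destabilises cytokine mRNA, increased by 3.26 in the pancreas, and Hmox1, heme oxygenase, by 2.65 in adipose tissue. Zfp36 and Hmox1 were each called higher in the other tissue too. The pancreas count was 2 without control replicate 1 and 1 without control replicate 2. IL-4 and IL-13 targets were called in both directions, with medians of 0.70 in the pancreas and 0.86 in adipose tissue. In the pancreas 1 of 7 was called higher and 1 lower, near the 16.2% and 13.5% of all tested genes. In adipose tissue 5 of 14 were called higher and 3 lower, beside 12.1% and 13.0% of all tested genes. The pancreas median was 0.0782 without OA-AP replicate 3, 1.22 without control replicate 1 and 0.461 without control replicate 2, and the adipose median was 0.358 without OA-AP replicate 3, 0.461 without control replicate 1 and 0.55 without OA-AP replicate 1. In adipose tissue Chil3, a chitinase-like protein of macrophages, went from 2.64 ± 1.17 to 112 ± 60.7 CPM (log2 fold change 5.40, SE 0.585), whereas Retnla, the resistin-like protein of IL-4 activated macrophages, fell by 2.07, Alox15 by 3.30 and Irf4 by 2.95. Retnla was lower in the pancreas too (-2.13, SE 0.510), a call lost without control replicate 1, and Cdh1, the epithelial cadherin, was higher there (2.31, SE 0.536), a call lost without either control library.

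Interferon-gamma targets were called lower in the pancreas in 7 of 16 cases with none higher, where 13.5% of all tested genes were called lower. They had a median of -1.22. Among those called were Iigp1 (4.81 ± 1.58 to 1.04 ± 0.430 CPM, log2 fold change -2.21, SE 0.422, adjusted p = 0.00574) and the guanylate-binding proteins Gbp7 (-1.72), Gbp4 (-1.78) and Gbp3 (-2.42). The count was 0 without control replicate 1, 3 without control replicate 2, 3 without OA-AP replicate 1 and 2 with library totals alone. In adipose tissue 1 of 21 was called higher (the chemokine Cxcl10, 0.83) and 1 lower (Ciita, the MHC class II regulator, -1.25). Of all genes tested there 12.1% were called higher and 13.0% lower. The list had a median of -0.37 in adipose tissue. That median turned to 0.249 without control replicate 2, and it was -0.816 without OA-AP replicate 2, -0.134 without OA-AP replicate 1 and -0.561 without control replicate 3. Summed, the list was at 1802 CPM in adipose control replicate 2 and 1520 CPM in OA-AP replicate 2, and between 563 and 650 CPM in the other 4 adipose libraries.

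**Figure D4:**
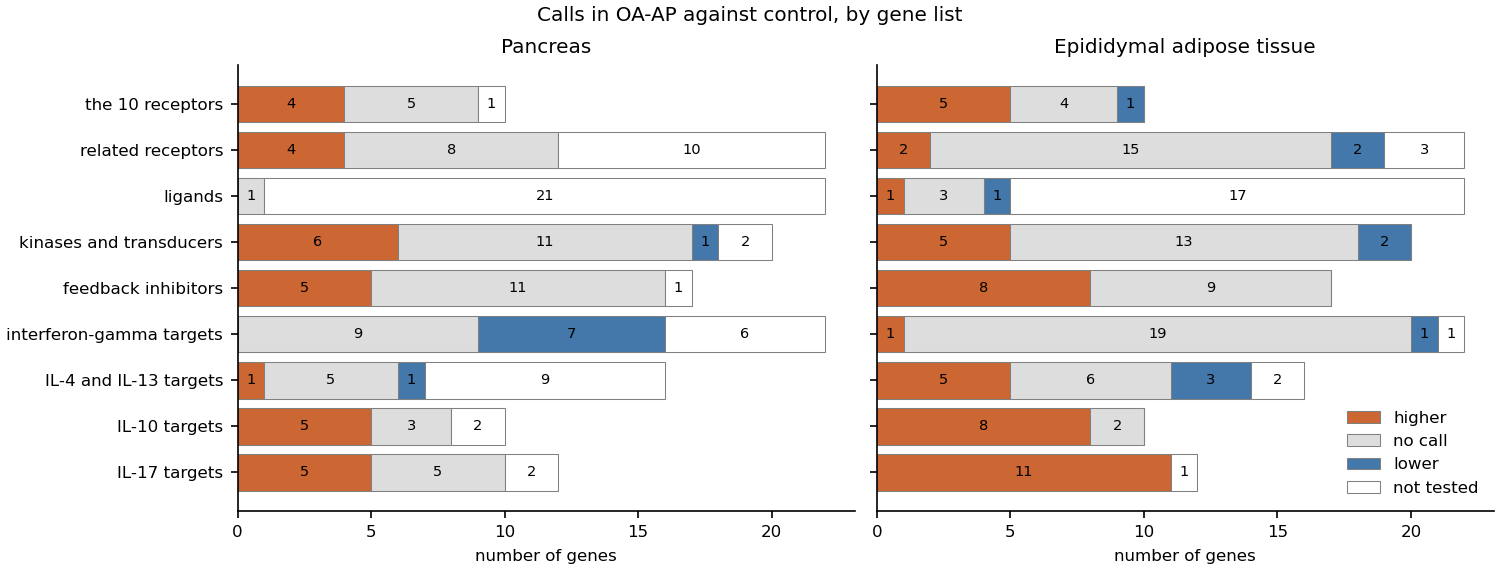
Number of genes (x axis) of each list called higher (orange), not called (grey), called lower (blue) or not tested for low counts (white) in OA-AP against control pancreas (left) and adipose tissue (right). The interferon-gamma targets hold 7 lower calls in the pancreas, and the IL-17 and IL-10 targets hold 11 and 8 higher calls in adipose tissue.

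Markers of white blood cells were read in the same libraries. Of all tested genes 16.2% were called higher and 13.5% lower in the pancreas, and 12.1% and 13.0% in adipose tissue. The lower counts of the macrophage and monocyte markers, 1 of 10 and 1 of 11, were near these shares. The 5 pan-leukocyte markers (among them Laptm5, Coro1a and Ptprc) summed to 17.0 and 17.9 CPM in control and 12.0, 8.58 and 25.3 CPM in OA-AP pancreas, with none called higher and 1 lower, and to 224 to 322 against 254 to 382 CPM in adipose tissue, with 1 called higher. Neutrophil markers summed to 1.80 and 2.79 CPM in control pancreas, where Ly6g, Retnlg, Mpo, Elane and Stfa2l1 were at 0, and to 14.5, 4.63 and 107 CPM in OA-AP replicates 1 to 3. None of the 7 tested in the pancreas was called by edgeR with all libraries, TMM factors and no block, with 1 at an unadjusted p under 0.05. Calls numbered 4 with the replicate block, 2 with library totals alone, 2 with no filter on low counts, 3 without OA-AP replicate 2, 1 without OA-AP replicate 3 (4 genes tested) and 6 in DESeq2. Macrophage and monocyte markers there summed to 81.1 and 41.8 CPM in control and 68.5, 71.1 and 119 CPM in OA-AP libraries, with none of 10 called higher and 1 lower (Csf1r). OA-AP replicate 3 was thus the highest pancreas library in neutrophil, pan-leukocyte and macrophage and monocyte markers. It was also highest in Il4ra, Il13ra1, Il10ra, Il10rb, Il17ra, Csf2ra and Csf2rb, but not in Ifngr1, Ifngr2 or Il2rg. Without that library Il4ra, Il13ra1, Il17ra and Csf2ra were still called in the pancreas (log2 fold changes 2.32, 1.82, 1.36 and 0.76). In adipose tissue neutrophil markers summed to 20.3 to 39.5 CPM in control and 190 to 213 CPM in OA-AP mice, with 7 of 9 called higher and 1 lower, and the macrophage and monocyte markers to 1059 to 1369 and 1259 to 1606 CPM, with 3 of 11 higher (Cd68, Cd14 and Itgam) and 1 lower (Csf1r). Among other cell types, mesothelial markers summed to 209.7 and 191.7 CPM in control and 486 to 1181 CPM in OA-AP pancreas, with Krt8 and Krt18 of 5 called higher. These keratins are also made by duct and other epithelial cells, and the other markers were not called (log2 fold changes of -0.24 for Msln, -2.20 for Upk3b and -1.12 for Wt1), for a list median of -0.24. Of the fibroblast markers 4 of 6 were called lower in adipose tissue. The part of these cells in the receptor differences was not tested.

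**Figure D5:**
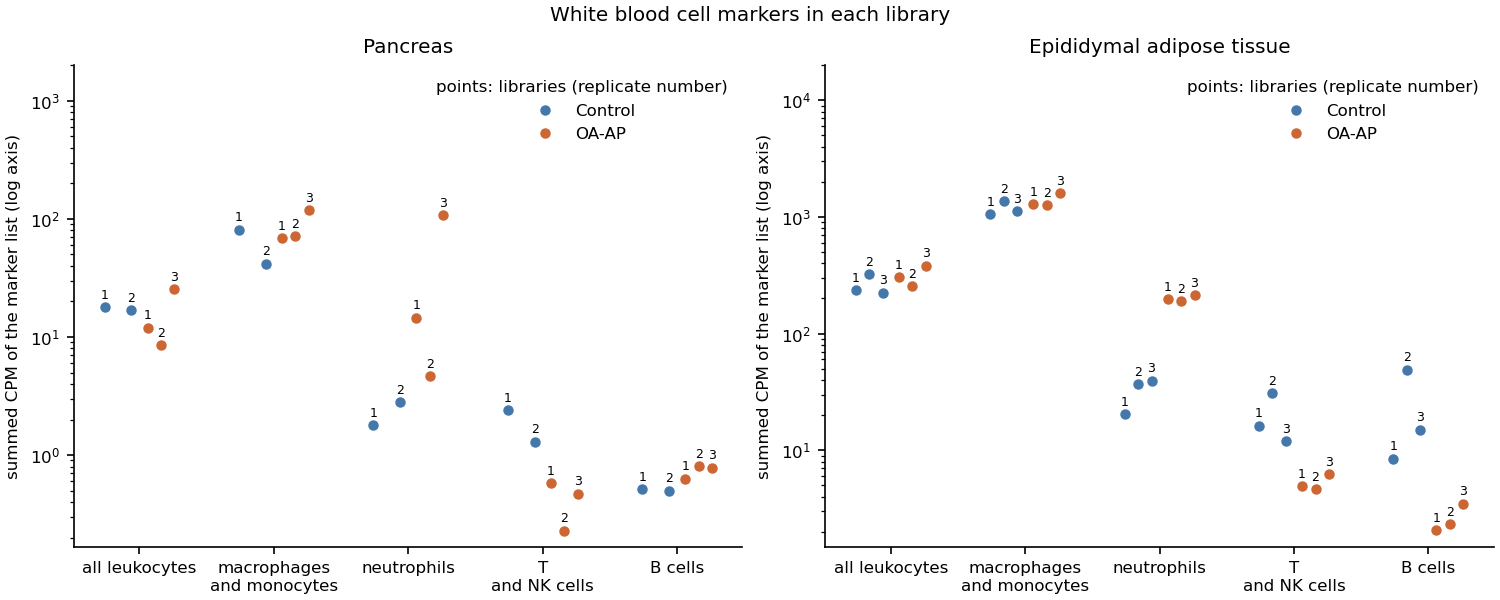
Summed CPM of 5 marker lists (log axis) in each library of the pancreas (left) and adipose tissue (right), blue for control and orange for OA-AP, with the replicate number above each point. OA-AP pancreas replicate 3 stands apart in neutrophil markers at 107 CPM, and in adipose tissue neutrophil markers lie higher and both lymphocyte lists lower in every OA-AP library.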

How the data were processed

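The authors trimmed reads with Trim Galore 0.6.6, checked them with fastp 0.20.1, used STAR to map them to GRCm38, counted reads on genes by featureCounts 2.0.1, and they deposited unnormalised whole-number counts in a table for each tissue. Strand setting and annotation release are not given in the sources used here.

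Each tissue was fitted apart on the deposited counts with edgeR 4.0.16 (R 4.3.3): filterByExpr, TMM factors and the robust quasi-likelihood test, with Benjamini-Hochberg adjustment over all tested genes. The tissue by condition term was tested with all 11 libraries taken as independent, although the sources used here do not say whether both tissues came from the same mice. Standard errors (SE) come from the F statistic, as the size of the log2 value over the root of F. Log2 CPM for likeness used a prior count of 2. RPKM used the deposited gene lengths. DESeq2 1.42.0 was an alternative, as were other scalings, filters and fold minimums, each library left out in turn and the replicate number as a block. P-values measure the spread between samples that the labels give as separate replicates; replicates differed by more than counting noise (lowest chi-square per degree of freedom 6.91). Intervals and floors cover counting error only.

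Receptor genes and gene lists were chosen with earlier results of these data known. Of each list up to 4 called genes per tissue with the smallest p-values were named, with up to 3 of the most abundant of each marker list; those outside this rule were named after their values were seen. A gene called lower among the kinases and transducers is not reported by name here. The tests were tested on simulated data.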

Additional observations from a re-analysis of the deposited data

Results flagged for a closer look

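Il17ra was flagged because its change differed between the tissues by a test of the difference itself: the adipose log2 fold change exceeded the pancreas one by 1.32 (1.321, edgeR's interaction term, SE 0.269, adjusted p = 0.00499). All 3 OA-AP libraries lay above all controls in each tissue. Leaving out each library in turn gave differences from 1.17 to 1.45. With library totals alone the difference was 0.47 and did not pass (edgeR's interaction term, adjusted p = 0.167). Of the 10 receptor genes 2 passed with TMM factors, near the 21.3% of all 17046 tested genes that did.

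Ifngr2 was flagged in the same way, with a difference of 1.10 (SE 0.191, adjusted p = 0.00197). Its OA-AP libraries lay below the controls in the pancreas, 3 of 3, and above them in adipose tissue, 3 of 3. Leaving out each library in turn gave differences from 0.96 to 1.15. With library totals alone the difference was 0.26 and did not pass (adjusted p = 0.338). Relative to the median of all genes it was 1.16 with TMM factors and 1.13 with library totals alone.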

How the results depend on the processing

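Il13ra1 and Il17ra in the pancreas and Il4ra, Il13ra1, Il17ra and Csf2rb in adipose tissue stayed called in all 12 alternatives each. Of the receptor genes' changes, 92 of the pancreas values and 107 of the adipose values kept direction and call, 7 and 9 lost their call, and 4 and 1 gained one (in the pancreas Il10rb with library totals alone and with no filter on low counts, Ifngr1 with library totals alone and Csf2rb in DESeq2, and in adipose tissue Il2rg without OA-AP replicate 2). The count of receptor genes called in the pancreas was 2 to 4 with each library left out, and that of all genes 1495 to 4265, lowest without either control library, because only 1 control is then left. Scaling by library totals alone gave 6349 called pancreas genes, 5843 higher and 506 lower (92.0% higher), and a median log2 fold change of 0.749. A fold minimum of 2 left 2464 called genes in the pancreas and 2228 in adipose tissue. With library totals alone 4 receptor genes differed between tissues, all with the adipose change below the pancreas change: Il13ra1 (-0.87), Il10ra (-2.0), Il10rb (-1.33) and Csf2ra (-1.59). All genes had a median tissue difference of -0.876 under this scaling. Relative to that median Il13ra1 was at 0.0029, Il10ra at -1.12, Il10rb at -0.452 and Csf2ra at -0.714.

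Values of uncalled genes changed sign as follows. With library totals alone Ifngr2 was 0.22 in the pancreas, Il10rb -0.060 in adipose tissue and the Ifngr1 tissue difference -0.66. With each library left out, Il10ra in the pancreas ranged from -0.16 to 0.79, Il10rb in adipose tissue from -0.020 to 0.18 and Ifngr1 in adipose tissue from -0.14 to 0.46; tissue differences ranged from -0.52 to 0.48 for Il4ra, -0.32 to 0.23 for Il13ra1, -0.27 to 0.32 for Ifngr1 and -1.54 to 0.97 for Csf2rb; and the pancreas difference in the Il10ra to Il10rb ratio ranged from -0.67 to 0.19, above 0 without OA-AP replicate 2. The cause was not tested.

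Same-numbered control and OA-AP libraries did not deviate together (correlations 0.0015 and -0.041 in the pancreas and -0.0058, 0.056 and -0.16 in adipose tissue), so the numbers were not taken to pair these libraries; whether same-numbered pancreas and adipose libraries share a mouse is not given in the sources used here. With the replicate block 4 receptor genes were called in the pancreas and 5 in adipose tissue, where Il10ra was lost (-0.74, adjusted p = 0.0785); all called genes numbered 4099 and 3477, and 2 receptor genes differed between tissues. The block turned the pancreas value of Il10ra to -0.15 and the tissue differences of Il4ra and Il13ra1 to 0.061 and 0.024. A block of condition and number for the tissue term, added after the data were seen, also gave 2. Precision is limited by the low counts of Il10ra, Il2rg and Csf2rb in the pancreas.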

Other observations

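For each receptor gene with a call, the 3 genes most like it were found by Pearson's r of log2 CPM over the 11 libraries, as a description that mixes the tissue and the group differences. Il4ra was most like Osmr, the oncostatin M receptor chain (r = 0.996), Arg1, arginase (0.992), and Cfl1, cofilin (0.989). Il13ra1 was most like Rrp7a (0.990), Tnfrsf12a (0.981) and Ube2d3 (0.978), and Il17ra most like Ddx21 (0.989), Mybbp1a (0.988) and Hmga1 (0.983). Csf2rb was most like its neighbour Csf2rb2 (0.993), then Tgfbr2 (0.988) and Pdlim7 (0.987). Csf2ra was most like Rap1b (0.991), Rtn4 (0.983) and Kpna3 (0.982), and Ifngr2 most like Tspan31 (0.980), Atp6v0d1 (0.947) and Cryab (0.946). Il10ra was most like H2-Ob, an MHC class II chain (0.963), Pilrb1 (0.958) and Arhgap11a (0.951).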
